A study of Homo sapiens with 9 samples.

Results

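Classical cadherins, protocadherins and their larger relatives of the FAT and Dachsous type were followed in RNA sequencing of human neuroblastoma cells. Members were all protein-coding genes of the deposited table whose symbol, looked up from the Ensembl identifier in GENCODE release 44, was CDH or PCDH with a number, CDHR with a digit, FAT or DCHS of the vertebrate families, or any name beginning with PCDHA, PCDHB or PCDHG. Of 22290 genes with values, 40 were members, out of 98 protein-coding genes of the annotation that carry such a symbol. The remaining 58 had no value in the table and were not analysed here. They were CDH1, CDH6, CDH9, CDH16, CDH22, CDHR4, PCDH8, PCDH20, all 15 alpha, 14 of 16 beta and 21 of 22 gamma protocadherins.

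The study sequenced 9 libraries of IMR-32, an established neuroblastoma cell line, and asked which transcripts differ when the amount of TRAP-1, a mitochondrial chaperone of the Hsp90 family, is altered. The groups, with 3 libraries each, were the parental cells (PAR, genotype label WT), a line labelled as TRAP-1 knockdown (KD) and a line labelled as TRAP-1 overexpression (OE). All cells were grown in DMEM with fetal bovine serum, total RNA was taken with Trizol, and the library kit did not record the strand of a transcript. The KD and OE cells had been made earlier, and neither the vector nor whether each line was 1 clone is stated in the sources used. The study isolated RNA in triplicate from each kind of cells. Neither this nor the labels say whether the 3 libraries of a group came from separate cultures. They may be technical replicates, and the p-values measure only the spread between these libraries.

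The values analysed were regularized log2 values (rlog) as deposited, in which read counts were scaled for library size and each gene was shrunken toward its own mean. Differences between groups are therefore smaller than those of the counts, more so at low levels, and no fold changes are given. The depth of each library cannot be read from such values. A gene was called when limma, fitted to all 22290 genes and all 9 libraries, gave an adjusted p under 0.05, and a stricter rule also required a difference of more than 0.5.

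TRAP1 itself (ENSG00000126602) went against the labels. Its rlog values were 10.67, 10.66 and 10.65 in the parental libraries, 10.79, 10.79 and 10.83 in the libraries labelled KD, and 10.67, 10.63 and 10.74 in those labelled OE. All 3 libraries labelled KD lay above all parental libraries, and the libraries labelled OE lay on both sides of the parental ones. The difference from parental was 0.14 for the KD label (standard error 0.025, adjusted p = 1.8e-05) and 0.018 for the OE label (adjusted p = 0.643). KD and OE are therefore used below as the names of the libraries and not as the state of TRAP1.

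Some markers that define neuroblastoma were low or had no value. Of 11 adrenergic neuroblastoma markers 9 had values, and DBH and DDC had none. The mean parental rlog value was 2.52 for MYCN, the oncogene amplified in this line, 1.33 for PHOX2A, a noradrenergic transcription factor, 2.84 for TH, the first enzyme of catecholamine synthesis, and 4.07 for CHGA, a granule protein. The other 5 lay above 5, ISL1, a neuronal homeobox factor, at 9.37, GATA2, a zinc-finger factor, at 9.27, its relative GATA3 at 7.25, HAND2, a neural crest factor, at 6.36 and CHGB, a relative of CHGA, at 5.87. Of 9 mesenchymal markers with values, VIM, the intermediate filament protein vimentin, was the most abundant at 15.72, and its value was the highest mean among the marker genes examined, while the collagens COL1A1, COL1A2 and COL3A1 were below 5. The cells are therefore called by their label, IMR-32, without a cell type drawn from the markers.

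Cadherins are membrane proteins whose extracellular repeats bind calcium and hold neighbouring cells together, mostly by like-to-like contact, and classical cadherins pass tension to actin through catenins bound to their tails. Neural tissue uses CDH2 throughout, type II cadherins in combinations that sort neurons into nuclei and circuits, and non-clustered protocadherins in regional patterns. The alpha, beta and gamma protocadherins lie in a row of gene clusters, and a neuron chooses a few of their promoters at random, a choice that involves CTCF, cohesin and DNA methylation and gives the cell a surface identity. FAT and Dachsous proteins are giant cadherins of planar polarity and growth control.

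Promoter sequences are shown for CDH10, the member with the largest difference, for CDH2, and for the 3 clustered protocadherins that had values. RefSeq promoters of GRCh38.p14, windows of 300 bases that end shortly after a start, matched 28 of the 40 members with 42 entries. No promoter of CDH1, which had no value, is shown. Capitals in the first pair of sequences mark CCCTC or its reverse complement GAGGG, letters found in CTCF sites, of which each promoter held 4. CDH10 is given for chr5:24644929-24645228 and CDH2 for chr18:28177081-28177380, both on the minus strand. The CDH10 window spans the 5′ end of the annotated gene, and the CDH2 window lies inside the annotated gene near that end.
CDH10: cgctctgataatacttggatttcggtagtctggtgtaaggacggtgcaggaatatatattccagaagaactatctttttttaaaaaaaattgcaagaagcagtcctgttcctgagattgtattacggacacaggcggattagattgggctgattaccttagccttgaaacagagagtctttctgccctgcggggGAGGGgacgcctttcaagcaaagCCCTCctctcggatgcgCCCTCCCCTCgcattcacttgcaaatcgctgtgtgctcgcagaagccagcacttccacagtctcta
CDH2: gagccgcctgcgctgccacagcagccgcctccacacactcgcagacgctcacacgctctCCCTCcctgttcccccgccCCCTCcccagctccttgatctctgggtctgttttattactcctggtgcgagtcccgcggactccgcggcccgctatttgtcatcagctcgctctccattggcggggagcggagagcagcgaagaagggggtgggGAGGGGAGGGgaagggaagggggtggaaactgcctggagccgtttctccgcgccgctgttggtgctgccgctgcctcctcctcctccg

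For the clustered genes 64 bases around CGCT are shown, since CGCT is the core of an element shared by many clustered protocadherin promoters, and capitals mark these letters. All are on the plus strand of chromosome 5, in front of the respective gene, at chr5:141094530-141094593 for PCDHB2, chr5:141245300-141245363 for PCDHB15 and chr5:141330389-141330452 for PCDHGA1. PCDHB2 and PCDHB15 shared a run of 13 bases around the core, ggtggCGCTgcag, which 15 of 35116 promoters in the table held (0.0427%), 10 of them among the 52 entries of clustered protocadherins.
PCDHB2: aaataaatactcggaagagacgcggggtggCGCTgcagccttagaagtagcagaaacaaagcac
PCDHB15: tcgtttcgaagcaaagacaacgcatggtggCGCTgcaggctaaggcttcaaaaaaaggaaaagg
PCDHGA1: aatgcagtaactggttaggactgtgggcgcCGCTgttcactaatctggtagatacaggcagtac

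Each motif was searched on both strands of 300 bases. CCCTC or GAGGG was present in 71.4% of member promoters and 71.2% of all promoters, and CGCT or AGCG in 85.7% and 70.0%. The E-box CACCTG or CAGGTG, which SNAI and ZEB repressors can bind, was present in 14.3% of member promoters, 6 entries of the 5 genes CDH4, CDH23, CDHR2, PCDH1 and PCDH15, and in 20.6% of all promoters. No entry of CDH10, CDH2, CDH12, CDH18 or PCDH17 held the E-box letters. The median share of G and C was 57.2% in member promoters and 58.7% in all, and the median number of CG dinucleotides was 10 and 14. These are matches of letters and not binding sites.

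The libraries labelled KD were compared with the parental libraries to ask which adhesion genes differ in cells labelled as having less TRAP-1. Of the 40 members, 21 were called higher and 11 lower, where 26.9% of all 22290 genes were called higher and 26.9% lower. Of 10 type II cadherins 8 were called higher, CDH10, CDH18 and PCDH17 had the largest increases of all members, and CDHR3, FAT1 and FAT3 the largest decreases. A call together with a difference over 0.5 was reached by 4 members, CDH10, CDH18, PCDH17 and PCDH7, all higher, and by 4.98% of all genes. The median difference was 0.083 over the members and -0.00051 over all genes, and the median size of the difference, regardless of sign, was 0.23 and 0.081. Among genes with a mean value of at least 5, the median difference was 0.22 over 29 members and -0.0012 over 14000 genes. These are bulk RNA values, in which fewer cells of a type and less RNA per cell cannot be told apart.

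**Figure D1:**
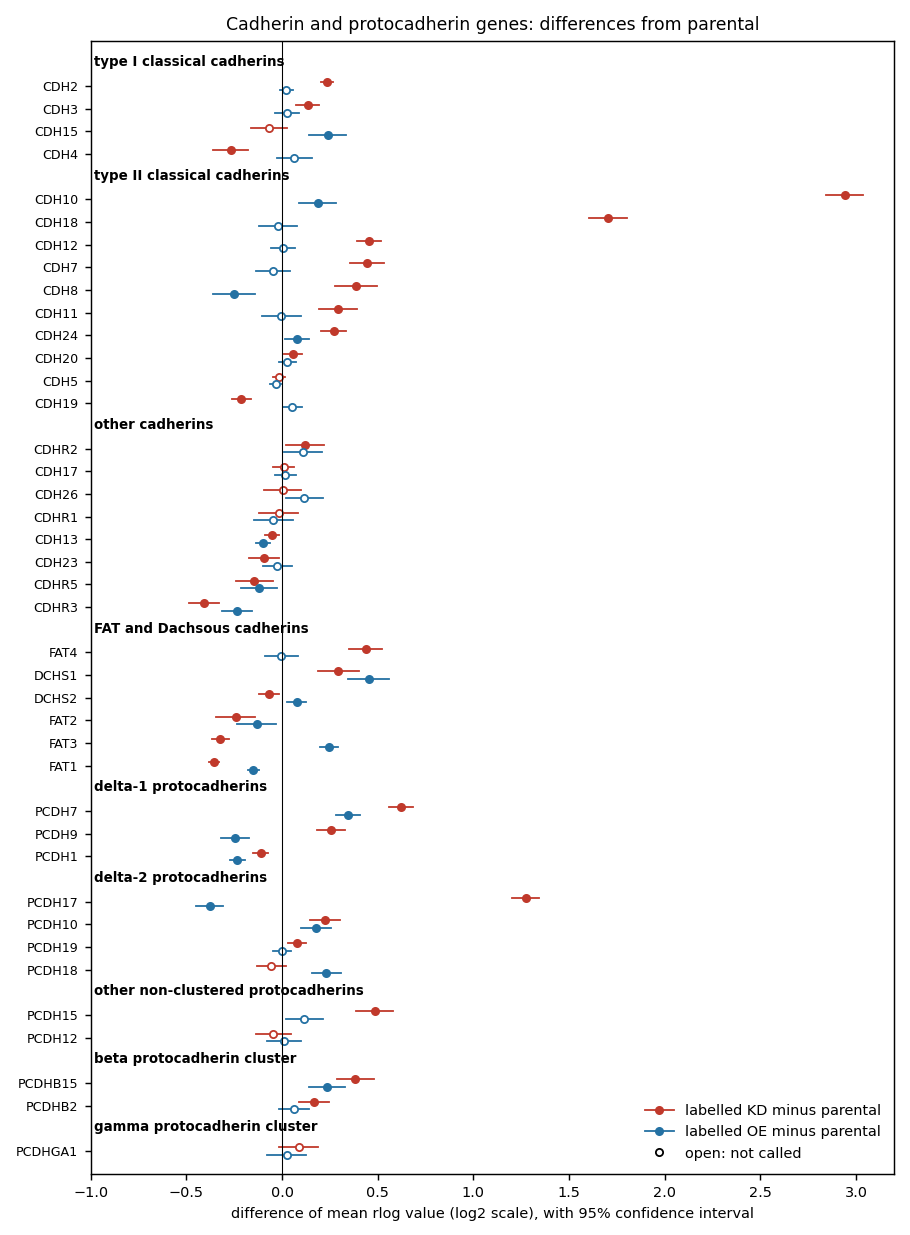
Difference of mean rlog value (log2 scale) from the parental libraries for each of the 40 members, grouped by role, for the libraries labelled KD (red) and OE (blue), with 95% confidence intervals from limma and open points where a gene was not called. CDH10 (2.94), CDH18 (1.71) and PCDH17 (1.27) stand to the right for the KD label, and no member passes 0.5 for the OE label.

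Among type I classical cadherins, which bind catenins most strongly, 4 of 5 had values. CDH2 (N-cadherin, the classical cadherin of neurons and mesenchyme, ENSG00000170558, chromosome 18 from 27932879 to 28177946 on the minus strand of GRCh38) had rlog values of 12.35, 12.35 and 12.37 in the parental libraries, 12.61, 12.58 and 12.59 in the libraries labelled KD, and 12.38, 12.38 and 12.38 in those labelled OE. All 3 libraries labelled KD were above the other 6 libraries. The difference from parental was 0.23 for the KD label (standard error 0.016, adjusted p = 3.9e-14) and 0.023 for the OE label (adjusted p = 0.311), although the libraries labelled OE also lay above all parental libraries.

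CDH3 (P-cadherin of basal epithelia) was higher by 0.13 under the KD label (adjusted p = 3.2e-04), from parental values of 2.97, 2.94 and 2.95 to 3.09, 3.11 and 3.07. These levels are low, and shrinkage is strong there. CDH4 (R-cadherin, known from retina and brain) had values of 4.83, 4.82 and 4.90 in the parental libraries, 4.61, 4.58 and 4.55 in the libraries labelled KD, and 4.91, 4.91 and 4.92 in those labelled OE, so that the libraries labelled KD were lowest without overlap. Its difference from parental was -0.27 for the KD label (adjusted p = 3.5e-06) and 0.065 for the OE label (adjusted p = 0.283), which was called with the regional median removed. CDH15 (M-cadherin of muscle) was not called for the KD label, with a difference of -0.067 and an adjusted p of 0.239. CDH1 (E-cadherin, the classical cadherin of epithelia) had no value and was not analysed here, so an exchange between CDH1 and CDH2 could not be examined.

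Type II classical cadherins drive selective adhesion between neurons and between mesenchymal cells. Of 13 genes 10 had values, and of these 8 were called higher, 1 lower and 1 neither way in the libraries labelled KD, with a median difference of 0.34. Of all genes 26.9% were called higher and 26.9% lower, and of those with a mean of at least 5, 35.6% and 36.2%. CDH10 (ENSG00000040731, chromosome 5 from 24487100 to 24644978, minus strand), a cadherin of brain neurons whose promoter is printed above, had rlog values of 6.19, 6.32 and 6.31 in the parental libraries, 9.22, 9.20 and 9.22 in those labelled KD, and 6.57, 6.41 and 6.40 in those labelled OE. The libraries labelled KD stood far above all others and almost on 1 value, and those labelled OE were slightly above the parental ones without overlap. The difference of the KD label from parental was 2.94 (standard error 0.047, adjusted p = 8.7e-31), and the SD of the 3 libraries was 0.0066 under the KD label, 0.075 in parental and 0.093 under the OE label.

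CDH18, a neuronal type II cadherin on the same arm (chromosome 5 from 19471296 to 20575873, minus strand), had values of 5.79, 5.99 and 5.92 in the parental libraries, 7.60, 7.63 and 7.58 in those labelled KD, and 5.90, 5.85 and 5.89 in those labelled OE. Only the libraries labelled KD differed, by 1.71 (standard error 0.048, adjusted p = 3.8e-24), and the OE label gave -0.021 (adjusted p = 0.791), with values inside the parental range. CDH12, the brain cadherin that lies between them (chromosome 5 from 21750673 to 22853344, minus strand), had values of 9.44, 9.41 and 9.34 in the parental libraries, 9.86, 9.87 and 9.82 in those labelled KD, and 9.42, 9.37 and 9.42 in those labelled OE. It was higher by 0.45 for the KD label (standard error 0.030, adjusted p = 2.3e-14), and its difference for the OE label was 0.0037 (adjusted p = 0.947). In all 3 neighbours the libraries labelled KD were the highest of the 9, and CDH12, which lies nearer to CDH10 than CDH18 does, had the smallest difference.

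**Figure D2:**
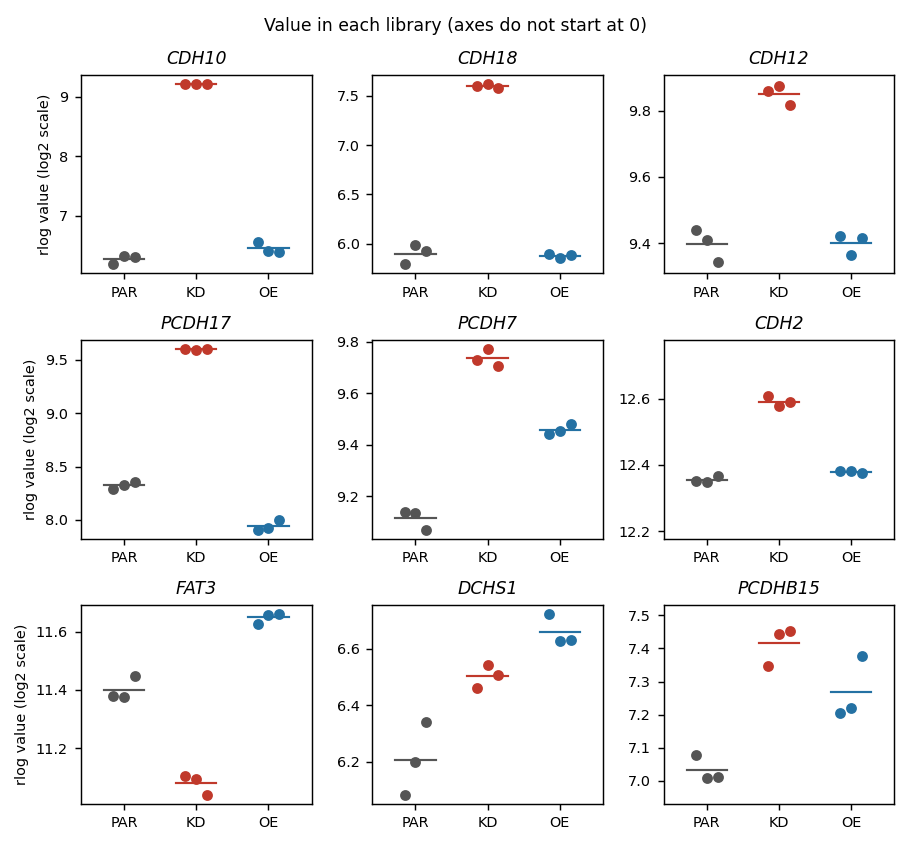
The rlog value (log2 scale) of 9 members in each of the 9 libraries, by group (parental, labelled KD, labelled OE), with a line at each group mean; axes do not start at 0. The libraries labelled KD stand alone at the top for CDH10 (9.20 to 9.22), CDH18, CDH12, PCDH17 and CDH2, and FAT3 has its highest values under the OE label.

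The stretch of chromosome 5 around CDH10 was described because the 3 cadherin genes lie in it. Within 10 Mb of CDH10, 36 genes had a mean value of at least 5, 33 of them not members. Of the 33 others, 20 were called higher and 10 lower under the KD label, with a median difference of 0.14, and 7 were called higher and 8 lower under the OE label, with a median of 0.025. Of all genes at such levels 35.6% were called higher and 36.2% lower under the KD label, and 24.0% and 26.3% under the OE label. The non-coding transcript ENSG00000286134, 0.352 Mb to the left of CDH10, had the largest of these differences, 2.29 for the KD label (adjusted p = 4.9e-27) and 0.023 for the OE label (adjusted p = 0.776). To the right, the non-coding LINC02228 at 0.60 Mb was higher by 0.30, and PURPL, a p53-induced non-coding transcript at 2.73 Mb, was lower, with a difference of -0.51. Farther to the left, the non-coding ENSG00000249174 and LINC02100 were higher by 1.14 and 0.64, and LINC02241 was lower, with a difference of -0.36. After the median difference of each 20-Mb block was taken from every library, CDH10, CDH18 and CDH12 had differences of 2.89, 1.71 and 0.40. CDH18 lies in another block than CDH10 and CDH12. The KD block medians were -0.015 for CDH18 and 0.069 for the others, so their removal takes little from differences of these sizes. Whether the stretch differed as a whole was not tested.

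**Figure D3:**
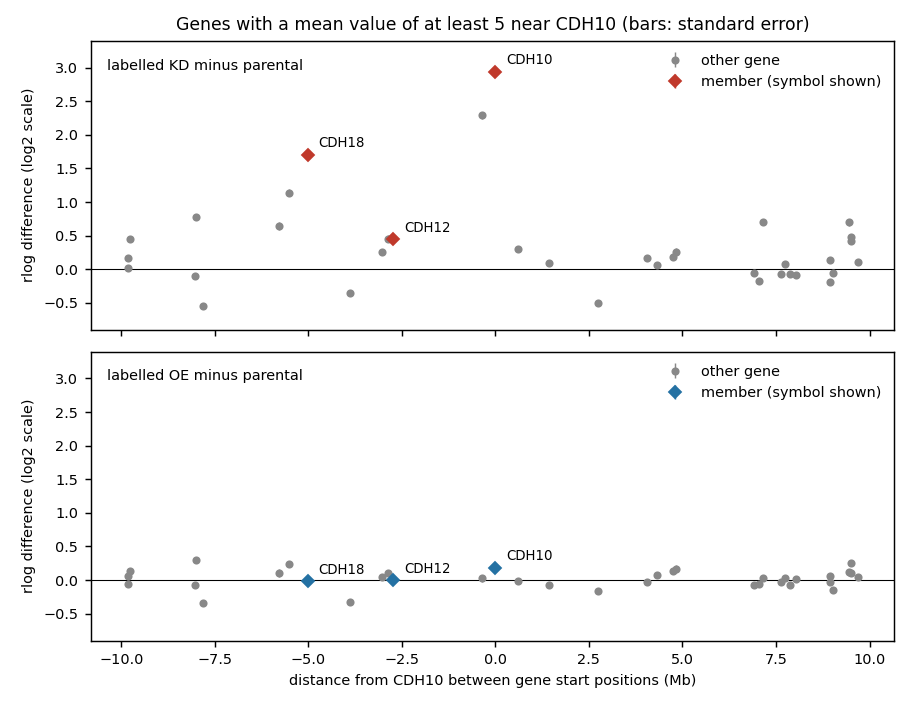
Difference of mean rlog value from parental (log2 scale, vertical axis) for the 36 genes with a mean of at least 5 within 10 Mb of CDH10, against the distance between gene starts in Mb, for the libraries labelled KD (top) and OE (bottom); members are diamonds, other genes grey points, bars are standard errors and are mostly smaller than the points. Under the KD label CDH10 (2.94), ENSG00000286134 (2.29) and CDH18 (1.71) stand above genes on both sides, and under the OE label the points lie between -0.35 (MYO10) and 0.30 (RETREG1).

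The other type II cadherins differed less in the libraries labelled KD. CDH7, a cadherin of neural crest derivatives, was higher by 0.44 (adjusted p = 1.7e-10), CDH11, the cadherin of osteoblasts and mesenchyme, by 0.29 (adjusted p = 6.6e-06) and CDH24, which binds catenins like its relatives, by 0.27 (adjusted p = 5.8e-09). CDH8, a synaptic cadherin, had values of 5.90, 6.11 and 6.06 in the parental libraries, 6.48, 6.40 and 6.36 in those labelled KD, and 5.81, 5.83 and 5.68 in those labelled OE. It was higher under the KD label by 0.39 (adjusted p = 2.1e-07), and the groups did not overlap. CDH19, a cadherin of Schwann cell precursors, was the 1 type II member called lower, with a difference of -0.21 (adjusted p = 1.2e-08). CDH20 was called with a difference of 0.057 at a level below 3, a call that ended with no variance trend or without PAR replicate 1, 2 or 3 or KD replicate 1 or 2 (0.043 to 0.059), and the difference was 0.098 with the regional median removed. CDH5 (VE-cadherin of endothelium) was near the floor of the table, with a difference of -0.017 (adjusted p = 0.364).

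Non-clustered protocadherins have weak adhesion of their own and signal through their tails. Of the delta-2 group, whose tails recruit the actin-nucleating WAVE complex, 4 of 5 genes had values. Under the KD label 3 were called, each higher, where 26.9% of all genes were called higher. Of the 3, PCDH10 and PCDH19 were not called with the regional median removed. PCDH17 (ENSG00000118946, chromosome 13 from 57631744 to 57729311, plus strand), which organises synapses and axon bundles, had values of 8.29, 8.33 and 8.35 in the parental libraries, 9.60, 9.59 and 9.60 in those labelled KD, and 7.91, 7.93 and 7.998 in those labelled OE. The 3 groups were fully separate, with the KD label highest and the OE label lowest. Against parental the difference was 1.27 for the KD label (standard error 0.034, adjusted p = 1.1e-24) and -0.38 for the OE label (adjusted p = 1.3e-10). PCDH10, an axon guidance protocadherin, was higher by 0.22 (adjusted p = 6.3e-06), a difference that was 0.082 and not called (adjusted p = 0.0630) with the regional median removed. PCDH19, an X-linked epilepsy gene, was called with 0.078 at a level near 2 (0.014 and not called with the regional median removed), and PCDH18 was not called, with a difference of -0.055, but was called lower with the regional median removed or without KD replicate 1.

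In the delta-1 group all 3 genes that match the symbol rule had values. Under the KD label 2 were called higher and 1 lower, beside 35.6% and 36.2% of all genes with a mean of at least 5. PCDH7 (ENSG00000169851, chromosome 4 from 30720369 to 31146805, plus strand), a delta-1 protocadherin that binds the phosphatase PP1, had values of 9.14, 9.13 and 9.07 in the parental libraries, 9.73, 9.77 and 9.71 in those labelled KD, and 9.44, 9.45 and 9.48 in those labelled OE. Both altered groups were above parental without overlap, by 0.62 for the KD label (standard error 0.030, adjusted p = 5.5e-18) and by 0.34 for the OE label (adjusted p = 5.3e-11). PCDH9, a protocadherin of cortical circuits, had values of 8.87, 8.85 and 8.80 in the parental libraries, 9.10, 9.09 and 9.09 in those labelled KD, and 8.57, 8.54 and 8.67 in those labelled OE. Its libraries fell on opposite sides of parental, with differences of 0.26 (adjusted p = 2.1e-07) and -0.25 (adjusted p = 1.1e-06). PCDH1, a protocadherin of airway epithelium, was lower, with a difference of -0.11 for the KD label (adjusted p = 5.9e-06). PCDH15, which forms the tip links of hair cells together with CDH23, was higher by 0.48 (adjusted p = 1.4e-10), and PCDH12, an endothelial protocadherin, had a difference of -0.045 (adjusted p = 0.415).

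Of the 53 clustered protocadherin genes 3 had values, so which isoforms the cells had chosen could not be described beyond them, and no share of a cluster or number of effective isoforms was computed. No alpha isoform was present in the table. PCDHB15 (ENSG00000113248, chromosome 5 from 141245395 to 141249365, plus strand), a beta isoform, had values of 7.08, 7.01 and 7.01 in the parental libraries, 7.35, 7.44 and 7.45 in those labelled KD, and 7.21, 7.22 and 7.38 in those labelled OE. Both altered groups lay above parental without overlap, by 0.38 (adjusted p = 2.2e-08) and 0.24 (adjusted p = 1.5e-04).

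PCDHB2 (ENSG00000112852, chromosome 5 from 141094606 to 141098703, plus strand), another beta isoform with the same letters around the promoter core, had values of 8.17, 8.19 and 8.08 in the parental libraries, 8.36, 8.31 and 8.28 in those labelled KD, and 8.16, 8.26 and 8.22 in those labelled OE. Its libraries labelled KD were above the other 6, by 0.17 from parental (adjusted p = 4.3e-04), and the OE label gave 0.064 (adjusted p = 0.226). PCDHGA1 (ENSG00000204956, chromosome 5 from 141330514 to 141512975, plus strand), the gamma isoform, had values of 7.52, 7.39 and 7.50, then 7.59, 7.57 and 7.51, then 7.38, 7.63 and 7.47 in the same order of groups, and all groups overlapped. Its differences were 0.088 (adjusted p = 0.141) and 0.024 (adjusted p = 0.763). Of the exonic bases, 43.9% in PCDHB2 and 34.5% in PCDHGA1 are shared with other annotated genes, so reads there cannot be given to 1 gene.

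All 6 FAT and Dachsous genes had values, and all were called in the libraries labelled KD, 2 higher and 4 lower. Of all genes with a mean of at least 5, 71.7% were called under that label, and of those below 5, 23.4%. FAT1, a regulator of actin and growth signalling (ENSG00000083857, chromosome 4 from 186587794 to 186726722, minus strand), had values of 14.16, 14.14 and 14.16 in the parental libraries, 13.81, 13.81 and 13.77 in those labelled KD, and 13.98, 14.02 and 14.00 in those labelled OE. Both altered groups were below parental, with differences of -0.35 (standard error 0.013, adjusted p = 9.0e-21) and -0.15 (adjusted p = 1.0e-10). FAT3, which shapes dendrites of retinal neurons (ENSG00000165323, chromosome 11 from 92224818 to 92896473, plus strand), had values of 11.38, 11.38 and 11.45 in the parental libraries, 11.11, 11.10 and 11.04 in those labelled KD, and 11.62, 11.66 and 11.66 in those labelled OE. Here the 2 labels lay on opposite sides of parental without overlap, with differences of -0.32 (adjusted p = 7.9e-14) and 0.25 (adjusted p = 1.5e-10).

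FAT4 and DCHS1 are the receptor and ligand of mammalian planar polarity. FAT4 had values of 6.86, 6.85 and 6.84 in the parental libraries, 7.29, 7.33 and 7.24 in those labelled KD, and 6.85, 6.85 and 6.84 in those labelled OE, with a difference of 0.44 for the KD label (adjusted p = 1.2e-10) and -0.0042 for the OE label (adjusted p = 0.959). DCHS1 (ENSG00000166341, chromosome 11 from 6621330 to 6655809, minus strand) had values of 6.08, 6.20 and 6.34 in the parental libraries, 6.46, 6.54 and 6.51 in those labelled KD, and 6.72, 6.63 and 6.63 in those labelled OE. Its parental libraries were widely spread but below all others, and the differences were 0.30 (adjusted p = 1.5e-05) and 0.45 (adjusted p = 2.2e-08). FAT2, known from cerebellar granule cells, was lower, with a difference of -0.24 for the KD label (adjusted p = 9.99e-05). DCHS2, the other Dachsous gene at a level near 2, had a difference of -0.069 (adjusted p = 0.0209), which was -0.050 and not called without PAR replicate 1, and -0.13 with the regional median removed.

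Of 10 cadherins outside the classical families 8 had values, and 1 was called higher, 4 lower and 3 neither way in the libraries labelled KD. Of all genes 26.9% were called higher and 26.9% lower, and of those with a mean below 5, 12.1% and 11.3%. The counts of this group were not tested against these shares. CDHR3, the airway receptor of rhinovirus C, had the largest decrease of any member, from 8.35, 8.31 and 8.27 to 7.92, 7.87 and 7.91, a difference of -0.41 (adjusted p = 9.1e-11). No library labelled KD reached the parental range. CDHR5, a brush border cadherin, had a difference of -0.14 (adjusted p = 0.00930), which ended as a call without PAR replicate 2 (-0.12) or KD replicate 3 (-0.12). CDH23, the partner of PCDH15 in tip links, had -0.094 (adjusted p = 0.0327) and was not called without PAR replicate 3 (-0.077) or KD replicate 1 (-0.086) or 3 (-0.081), nor with the regional median removed (-0.083).

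CDHR2, the brush border partner of CDHR5, was called higher by 0.12 (adjusted p = 0.0349), a call that ended after quantile normalisation (0.083) or without PAR replicate 2 or 3 or KD replicate 1 or 3 (0.10 to 0.12). CDH13, T-cadherin, which is held by a lipid anchor and has no tail, had the highest mean of these genes. Its values were 12.39, 12.34 and 12.37 in the parental libraries and 12.34, 12.33 and 12.29 in those labelled KD, a difference of -0.051 (adjusted p = 0.0157). It was -0.040 without PAR replicate 1 and -0.036 without KD replicate 3, neither called, was not called with no variance trend, and was 0.0050 with the regional median removed. CDH17 (liver and intestine), CDH26 and CDHR1 (photoreceptors) were not called, with differences of 0.0085, 0.0029 and -0.018.

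The libraries labelled OE were compared with the same parental libraries to ask which adhesion genes differ in cells labelled as having more TRAP-1. Fewer members passed the test. DCHS1 and PCDH7 had the largest increases and PCDH17 the largest decrease. In all, 10 members were called higher, where 16.9% of all genes were, and 9 lower, where 18.0% were. No member was called with a difference over 0.5, also at an unadjusted p under 0.05 from limma, where 0.897% of all genes passed at the adjusted p. Without PAR replicate 3 there was 1 such member, DCHS1, with a difference of 0.52. The median difference was 0.020 over the members and 0.00039 over all genes, and the median size was 0.090 and 0.048.

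By role, 1 type I cadherin was called higher, and 2 type II cadherins were higher and 1 lower. Under the OE label 24.0% of all genes with a mean of at least 5 were called higher and 26.3% lower. Below 5 these shares were 4.89% and 3.86%. CDH15, the muscle cadherin, had values of 4.94, 4.98 and 5.04 in the parental libraries, 4.94, 4.86 and 4.96 in those labelled KD, and 5.27, 5.17 and 5.24 in those labelled OE. The libraries labelled OE were above the other 6, with a difference from parental of 0.24 (adjusted p = 1.1e-04). CDH10 was higher by 0.19 (adjusted p = 0.00187), and CDH8 had a difference of -0.25 (adjusted p = 3.4e-04). CDH24 was called at 0.080 (adjusted p = 0.0454), a call that ended after quantile normalisation, with only the 2 groups compared, with the regional median removed, or without PAR replicate 2 or 3 or any 1 library of the KD or OE label, with differences of 0.060 to 0.087.

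Among protocadherins of the delta-1 group 1 was called higher and 2 lower, and in the delta-2 group 2 were higher and 1 lower. Of all genes 16.9% were called higher and 18.0% lower, and of those with a mean of at least 5, 24.0% and 26.3%. PCDH1 had values between 11.96 and 12.03 in the 3 parental libraries, 11.88, 11.88 and 11.89 in those labelled KD, and 11.75, 11.76 and 11.78 in those labelled OE. Its libraries labelled OE were the lowest, with a difference of -0.23 (adjusted p = 8.4e-12). PCDH18, a protocadherin of mesenchyme and neural tissue, was higher by 0.23 (adjusted p = 4.7e-06), and PCDH10 by 0.18 (adjusted p = 3.2e-04). PCDH15, with a difference of 0.12, was not called (adjusted p = 0.0529), but was called among genes with a mean of at least 5, with the regional median removed or without OE replicate 3.

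Of the FAT and Dachsous genes 3 were called higher (DCHS1, FAT3, DCHS2) and 2 lower (FAT1, FAT2) under the OE label. Of all genes with a mean of at least 5, 50.3% were called there, and of those below 5, 8.75%. DCHS2 had a difference of 0.076 (adjusted p = 0.0177) and was not called without PAR replicate 2 (0.065), PAR replicate 3 (0.068) or OE replicate 2 (0.061). FAT2 had -0.13 (adjusted p = 0.0359), with overlapping groups, and was not called with no variance trend or without PAR replicate 2 or 3 or OE replicate 1 or 2 (-0.14 to -0.094). Of the other cadherins 3 were called, each lower. CDHR3 had values of 8.13, 8.02 and 8.08, all below parental, with a difference of -0.23 (adjusted p = 1.0e-05). CDH13 had values of 12.27, 12.27 and 12.26, also all below parental, with -0.10 (adjusted p = 2.3e-05), and with the regional median removed the difference was -0.029 and not called (adjusted p = 0.228). CDHR5 had -0.12 (adjusted p = 0.0467) and was not called with only the 2 groups compared, with the regional median removed, or without PAR replicate 1 or 2, KD replicate 1 or OE replicate 1 or 3 (-0.12 to -0.094).

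The libraries labelled OE and KD were also compared with each other. CDH10, CDH18 and PCDH17 had the largest decreases from the KD to the OE label, and FAT3, CDH4 and CDH15 the largest increases. Of the members, 9 were called higher, beside 23.5% of all genes, and 19 lower, beside 23.8%. A call with a difference over 0.5 was reached by 6 members and by 3.56% of all genes. These were CDH10 (-2.75, adjusted p = 8.5e-30), CDH18 (-1.73, adjusted p = 4.1e-24), PCDH17 (-1.65, adjusted p = 1.4e-27), CDH8 (-0.64, adjusted p = 7.7e-12), PCDH9 (-0.50, adjusted p = 1.2e-13) and FAT3 (0.57, adjusted p = 5.4e-20). PCDH9 was below 0.5 in size after quantile normalisation, with the regional median removed, or without KD replicate 1 or OE replicate 1 or 2 (-0.498 to -0.472), and CDH7 was above it with the regional median removed or without KD replicate 1 or 3 (-0.53 to -0.503). The median difference was -0.048 over the members and 0.00078 over all genes, and the median size 0.17 and 0.065.

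Of the type II cadherins 7 were called lower and 1 higher in this comparison, with a median of -0.37. Of all genes 23.8% were called lower and 23.5% higher, and of those with a mean of at least 5, 32.6% and 31.5%. Further decreases from the KD to the OE label were -0.49 in CDH7, -0.45 in CDH12, -0.44 in FAT4, -0.37 in PCDH15 and -0.30 in CDH11. CDH2 had a difference of -0.21 (adjusted p = 6.8e-13), with no overlap. The increases beside FAT3 were 0.33 in CDH4, 0.31 in CDH15, 0.29 in PCDH18, 0.27 in CDH19, 0.21 in FAT1, 0.17 in CDHR3, 0.16 in DCHS1 and 0.14 in DCHS2. DCHS1 was not called without KD replicate 1 (0.14) or OE replicate 1 (0.13). PCDHB15 (-0.15) was not called without KD replicate 3 (-0.13) or OE replicate 1 (-0.12) or 2 (-0.12), and PCDHB2 (-0.10) not without KD replicate 1 (-0.084) or 2 (-0.11) or OE replicate 1 (-0.079). CDH13 (-0.050) was not called with no variance trend, after quantile normalisation (-0.036), with the regional median removed (-0.034), or without KD replicate 1 (-0.041) or 2 (-0.045). Calls were also gained. CDH26 was called with only the 2 groups compared, with the regional median removed, or without PAR replicate 1 or 2 or OE replicate 3. FAT2 was called with the regional median removed or without OE replicate 2, and PCDHGA1 without OE replicate 2.

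Set side by side, the comparisons with parental use the same 3 parental libraries, so their calls are not independent. CDH10, CDH24, DCHS1, PCDH7, PCDH10 and PCDHB15 were called higher under both labels, 6 members (beside 2443 of all 22290 genes), and CDH13, CDHR3, CDHR5, FAT1, FAT2 and PCDH1 lower under both, also 6 (beside 2773 of all genes). CDH8, PCDH9 and PCDH17 were higher under the KD label and lower under the OE label, and FAT3 and DCHS2 the reverse, patterns held by 2.17% and 2.07% of all genes. In these 5 the difference between the labels was itself called, as given above. CDH2, CDH12, CDH18 and FAT4 belonged to 12 members called higher under the KD label alone (beside 13.7% of all genes), and CDH15 and PCDH18 were the 2 called higher under the OE label alone (beside 3.85%). Of the 12, PCDH19 was called under the OE label with the regional median removed and CDHR2 without OE replicate 1. PCDH15 was called there in the alternatives given above. CDH4 and CDH19 were called lower under the KD label alone, but under the OE label CDH19 was called higher after quantile normalisation or without PAR replicate 3, and CDH4 with the regional median removed. The difference between the labels was called for these and for 10 of the 12, CDH20 and CDHR2 being the others, although CDH20 was called with the regional median removed. CDH23 was called lower under the KD label and not under the OE label, and its difference between the labels was 0.070 and not called (adjusted p = 0.125), except with no variance trend. CDH5, CDH17, CDH26, CDHR1, PCDH12 and PCDHGA1 were called in neither comparison (15.0% of the members, beside 39.1% of all genes), although under the OE label CDH26 was called with the regional median removed or without PAR replicate 1, PAR replicate 3 or OE replicate 3, and CDH5 without PAR replicate 2 or 3.

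Levels between members were compared after taking the values back from the log2 scale and dividing by kilobases of exon not shared with other genes. On this scale FAT1 had the highest parental level, 1127, followed by PCDH1 with 690, CDH2 with 633 and CDH13 with 610. CDH19 had 305, FAT3 138 and CDH12 128. The clustered genes had 123 for PCDHB2 (rank 9 of 40), 43.0 for PCDHGA1 (rank 12) and 36.5 for PCDHB15 (rank 14). PCDHB2 was the highest of the 3 in each group. PCDHGA1 and PCDHB15 had 45.6 and 47.5 under the KD label and 43.7 and 42.9 under the OE label, and with the whole exonic length in place of the unshared length PCDHB15 (33.0) was above PCDHGA1 (28.1) in the parental libraries, so their order was not resolved. CDH10 was at rank 18 of 40 in the parental libraries with 21.1, and had 162 under the KD label and 24.0 under the OE label. PCDH17 had 41.4, 100.1 and 31.9 in the same order, and CDH18 had 9.20, 30 and 9.07. The lowest level was that of CDH5, 0.258.

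**Figure D4:**
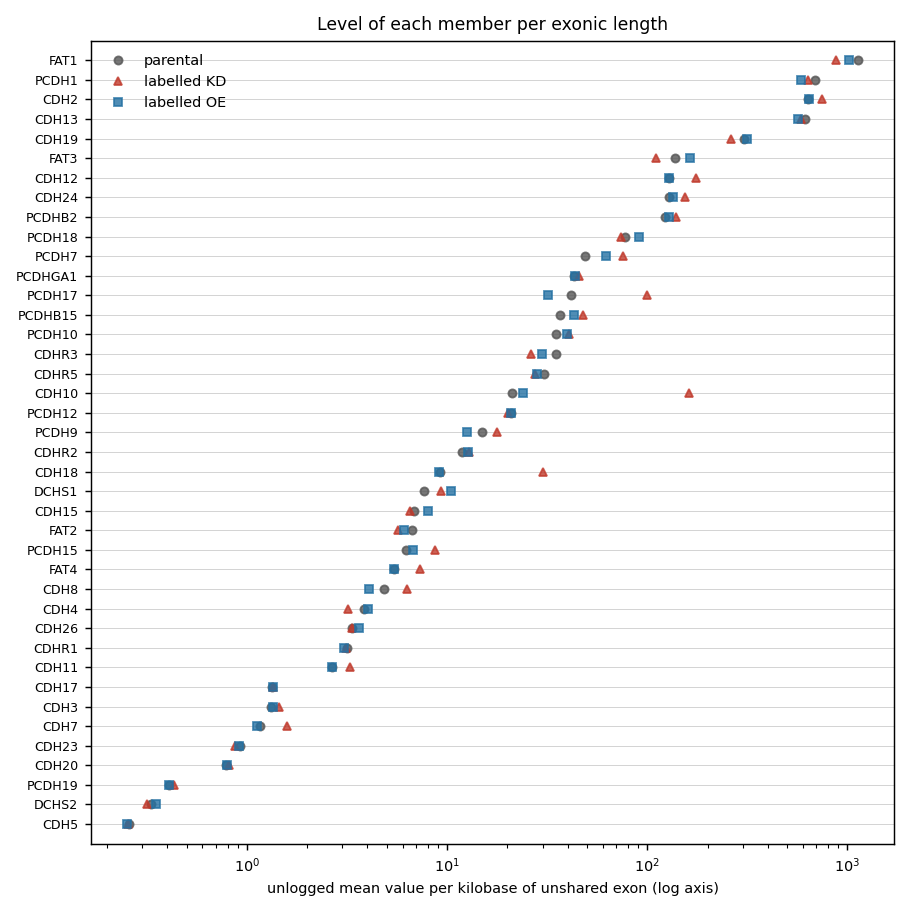
Mean value taken back from the log2 scale, per kilobase of exon not shared with other genes (logarithmic axis), of each member in the parental libraries (circles), the libraries labelled KD (triangles) and those labelled OE (squares), ordered by the parental level. FAT1 is at the top (1127 in parental) and CDH5 at the bottom (0.258), and the triangles of CDH10, CDH18 and PCDH17 stand to the right of their other symbols.

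The level also bears on what could be called. Of 11 members with a mean rlog value below 5, 7 were called for the KD label and 1 for the OE label, and of 29 members at or above 5, 25 and 18 were. CDH15, called for the OE label, reached 5 only through the libraries of that label. Its group means were 4.99 in parental, 4.92 for the KD label and 5.23 for the OE label. Of all genes below 5, 23.4% and 8.75% were called, and of all genes at or above 5, 71.7% and 50.3%. The 5 members below 3 were CDH5, CDH17, CDH20, DCHS2 and PCDH19, and no difference among them was larger in size than 0.078 for the KD label or 0.076 for the OE label. A small rlog difference at such levels does not limit the difference in counts.

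Catenins and other adherens junction partners, which link classical cadherins to actin, had values for all 18 genes of the list, 4 of them with means below 5. In the libraries labelled KD 4 were called higher and 10 lower, with a median of -0.14. Of all genes with a mean of at least 5, 35.6% were called higher and 36.2% lower for the KD label, 24.0% and 26.3% for the OE label, and 31.5% and 32.6% from the KD to the OE label. The counts of this list and of those that follow were not tested against these shares. CTNNB1 (beta-catenin, which binds cadherin tails and also acts in Wnt signalling) had values of 14.09, 14.11 and 14.08 in the parental libraries, 13.72, 13.72 and 13.72 in those labelled KD, and 14.12, 14.12 and 14.11 in those labelled OE. The libraries labelled KD were below the other 6, with a difference from parental of -0.38 (adjusted p = 9.1e-23), which was -0.11 and still called with the regional median removed. CTNNA2, the neuronal alpha-catenin, was higher by 0.61 (adjusted p = 7.6e-14), PKP4, a catenin-like armadillo protein, by 0.18 and VCL (vinculin) by 0.069. CTNNA1, the widely expressed alpha-catenin, was called at 0.036, a call that ended with no variance trend and a sign that turned after quantile normalisation (-0.039). The largest decreases were those of PLEKHA7, a junction adaptor (-0.50), NECTIN3, an adhesion receptor (-0.47), and JUP, plakoglobin (-0.44).

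Under the OE label 2 of the 18 were called higher and 6 lower, one of them NECTIN3 (-0.052), a call that ended with no variance trend, after quantile normalisation, or without PAR replicate 2 or 3 or OE replicate 3. VCL was higher by 0.13 and NECTIN2, an adhesion receptor, by 0.12. PLEKHA7 (-0.41), CTNND2, the neuronal delta-catenin (-0.30), and NECTIN4, an epithelial nectin (-0.17), had the largest decreases. From the KD to the OE label 9 were higher, led by NECTIN3 (0.42), CTNNB1 (0.40, or 0.12 with the regional median removed) and JUP (0.40), and 5 lower, led by CTNNA2 (-0.66), PKP4 (-0.15) and CTNND2 (-0.13). CTNND2 in this comparison was not called with the regional median removed or without KD replicate 2 or 3 or OE replicate 1 or 3, with differences of -0.13 to -0.10.

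Of 8 listed transcriptional repressors known to act on CDH1, which itself had no value, 4 were called higher and 2 lower under the KD label, and 6 higher and 1 lower under the OE label, where 71.7% and 50.3% of all genes with a mean of at least 5 were called. TWIST1 (0.43), TCF4 (0.41) and ZEB1 (0.33, adjusted p = 1.3e-14) led the increases under the KD label, and TWIST2 (-0.45) and ZEB2 (-0.15) were lower. SNAI2 (0.34), TWIST1 (0.28) and SNAI1 (0.26) led under the OE label, where TWIST2 had -0.13 and was not called with the regional median removed (-0.11) or without PAR replicate 1 (-0.094), PAR replicate 3 (-0.13) or OE replicate 1 (-0.093). From the KD to the OE label, TWIST2 (0.32), ZEB2 (0.28) and SNAI2 (0.27) were higher, and 4 were lower, led by TCF4 (-0.20), TWIST1 (-0.15) and ZEB1 (-0.14). TWIST1 was not called there without OE replicate 2 (-0.092), and TCF3, another of the 4 (-0.059), was not called in 8 of 16 alternatives.

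A list named activators of epithelial cadherin transcription held 9 genes, and whether each has that role was not tested. These genes were largely at low levels, 6 of 9 below a mean of 5. Of the 9, 2 were called against parental, under both labels, each lower. Of all genes below 5, 23.4% were called under the KD label and 8.75% under the OE label. At or above 5 these shares were 71.7% and 50.3%. KLF4, a zinc-finger factor of epithelia, had values of 10.11, 10.14 and 10.05 in the parental libraries, 9.15, 9.14 and 9.17 in those labelled KD, and 9.42, 9.37 and 9.42 in those labelled OE. All 6 libraries of the altered groups were below all parental libraries, with differences of -0.94 (adjusted p = 7.1e-23) and -0.69 (adjusted p = 1.5e-18). GRHL1, a grainyhead factor, was the other gene called lower, with -0.19 and -0.16. The remaining 7 were called in neither comparison. KLF4 (0.25) and OVOL2 (0.11), an epithelial zinc-finger factor, were the 2 called higher from the KD to the OE label. With the regional median removed KLF4 had 0.0099 in that comparison and was not called.

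Regulators of clustered protocadherin choice, 20 of 20 with values, moved both ways. Under the KD label 7 were called higher and 5 lower, and under the OE label 5 and 6, with medians of -0.0098 and -0.0082. All had means of at least 5, where 71.7% and 50.3% of all genes were called. Of those higher under the KD label, SMC1A, a cohesin subunit (0.031), was not called in 11 of 16 alternatives, and SETDB1, a histone methyltransferase (0.037), and TET2 (0.022) were not with the regional median removed. DNMT1, the maintenance DNA methyltransferase and the most abundant of the list, had a difference of -0.41 for the KD label (adjusted p = 4.8e-24) and -0.16 for the OE label. TET1, which oxidises methylated cytosine, was higher by 0.38 and 0.42, and DNMT3A, a de novo methyltransferase, by 0.25 and 0.13. NIPBL, the loader of cohesin, was higher by 0.14 under the KD label (0.088 with the regional median removed), and TET2, a relative of TET1, by 0.12 under the OE label. STAG1, a cohesin subunit, and CTCF, the factor that anchors cohesin loops, were lower under the KD label, with -0.27 and -0.16.

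Under the OE label TET3 (-0.16) and WIZ, a zinc-finger partner of CTCF and cohesin (-0.084), were the other leading decreases. From the KD to the OE label 5 were higher and 6 lower, led by STAG1 (0.26), DNMT1 (0.25) and RAD21, the cohesin ring subunit (0.10), and by MAU2, the partner of NIPBL (-0.14), DNMT3A (-0.13) and WIZ (-0.078). With the regional median removed, TET2 (0.062), WIZ (-0.044), CTCF (-0.047) and MAU2 (-0.023) were no longer called under the OE label, MAU2 also not without OE replicate 1, and from the KD to the OE label RAD21 was 0.054 and WIZ -0.050. In that comparison the calls of PDS5B, SETDB1, SMC1A and WAPL, cohesin factors apart from SETDB1, each ended in at least 1 alternative. The relation of these regulators to the 3 clustered genes with values was not tested.

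Of 12 signalling partners of protocadherins, 7 were called higher and 2 lower under the KD label, and 4 were called under the OE label, each higher, beside 71.7% and 50.3% of all genes with a mean of at least 5. One of the 7 was ABI1, a WAVE subunit (0.063), a call that ended with the regional median removed (0.017) or without PAR replicate 1 or 3 or KD replicate 1 or 2. NLGN1, a synaptic adhesion protein, was higher by 0.65 and 0.20, and CYFIP2 and CYFIP1, subunits of the WAVE complex, by 0.63 and 0.20 under the KD label. CYFIP2 (0.16) and FYN, a Src family kinase (0.075, or 0.049 and not called with the regional median removed), followed under the OE label. WASF3, a WAVE protein (-0.60), and PTK2, focal adhesion kinase (-0.31, or -0.10 with the regional median removed), were lower under the KD label. From the KD to the OE label WASF3 (0.67) and PTK2 (0.31, or 0.17 with the regional median removed) were higher, and 6 genes were lower, led by CYFIP2 (-0.47), NLGN1 (-0.45) and ABI2, a WAVE subunit (-0.17).

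Partners of FAT and Dachsous cadherins, mostly of the Hippo pathway, had values in 9 of 10 cases, LIX1L being absent. Under the KD label 5 were called higher and 3 lower, and under the OE label 3 and 4, beside 71.7% and 50.3% of all genes with a mean of at least 5 called either way. One of the 5 was STK4 (0.046), a call that ended with no variance trend, with the regional median removed (-0.0077) or without PAR replicate 1 or 2 or KD replicate 1 or 2. WWTR1 (TAZ, a coactivator held back by Hippo kinases) had values of 14.79, 14.80 and 14.81 in the parental libraries, 15.21, 15.20 and 15.20 in those labelled KD, and 15.10, 15.10 and 15.10 in those labelled OE. All altered libraries were above parental, by 0.40 (adjusted p = 4.1e-26) and 0.30 (adjusted p = 8.9e-22). ENAH, an actin regulator that FAT1 recruits, was higher by 0.15 and 0.10, YAP1, the relative of WWTR1, by 0.098 under the KD label and TAOK1, a Hippo pathway kinase, by 0.098 under the OE label. FJX1, the homologue of a fly kinase that modifies FAT and Dachsous repeats, had -0.41 and -0.27, and LATS1, a Hippo kinase, -0.14 and -0.078 (the latter -0.043 and not called with the regional median removed). STK3, a Hippo kinase, was lower under the KD label (-0.15) and its relative STK4 under the OE label (-0.094). From the KD to the OE label 3 were higher, STK3 (0.16), FJX1 (0.14) and LATS1 (0.058), and 4 lower, led by STK4 (-0.14), YAP1 (-0.11) and WWTR1 (-0.10). With the regional median removed YAP1 was 0.064 under the KD label, and STK4, YAP1 and LATS1 were -0.069, -0.073 and 0.10 from the KD to the OE label. Under the OE label LATS2 (-0.073) was not called after quantile normalisation or without PAR replicate 2 or 3 or OE replicate 1, and from the KD to the OE label ENAH (-0.049) was not with no variance trend. LATS1 was not called there without KD replicate 2 or 3 or OE replicate 2 or 3 (0.045 to 0.060).

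**Figure D5:**
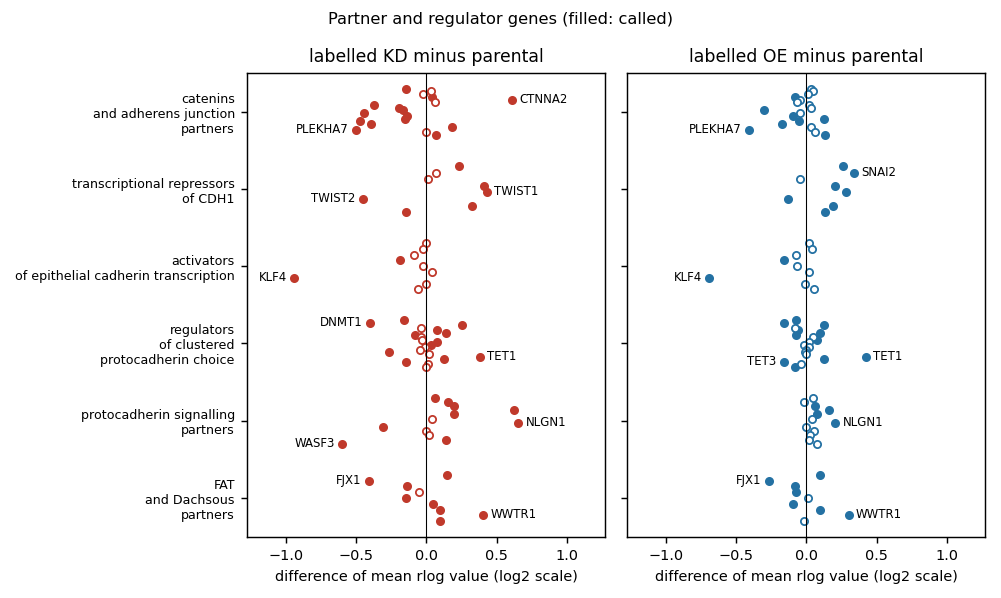
Difference of mean rlog value from parental (log2 scale) of each gene in 6 lists of cadherin partners and regulators, for the libraries labelled KD (left) and OE (right), with filled points for called genes. KLF4 lies farthest to the left in both panels (-0.94 and -0.69), and CTNNA2 (0.61) and NLGN1 (0.65) lie to the right under the KD label.

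Cell type markers also differed between the groups, and their part in the results was not tested. Of all genes 53.7% were called under the KD label and 34.8% under the OE label. Of the 9 adrenergic markers with values, 1 was called higher and 5 lower under the KD label and 2 lower under the OE label. The 1 higher was MYCN (0.081), not called with the regional median removed (0.050) or without PAR replicate 2 (0.055). CHGB, one of the 5 and of the 2, was not called with the regional median removed or without PAR replicate 1 under either label, nor under the KD label with no variance trend or without any 1 library of that label. Their values, taken back from the log2 scale and summed, were 1626, 1587 and 1598 in the parental libraries, 1475, 1458 and 1495 in those labelled KD, and 1492, 1578 and 1540 in those labelled OE. Of 10 pan-neuronal markers 7 had values, STMN2, ELAVL4 and SNAP25 having none, and 2 were higher and 2 lower under the KD label and 1 and 1 under the OE label. Their sums were 722, 765 and 723, then 805, 810 and 836, then 934, 951 and 991, mostly NEFL, a neurofilament. NCAM1, a neural adhesion molecule, differed by 1.39 and -0.45, while ELAVL3, TUBB3, GAP43 and NEFM were below a mean of 5.

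Mesenchymal markers had values for 9 of 10 genes, THY1 having none, and 3 were higher and 1 lower under the KD label and 5 higher under the OE label. Their sums were 74740, 74590 and 74530 in the parental libraries, 87120, 87780 and 87000 in those labelled KD, and 90340, 89550 and 90970 in those labelled OE, mostly VIM. FN1, fibronectin, differed by -0.96 and 0.55 and PRRX1, a mesenchymal homeobox factor, by 1.29 and 0.69, while COL1A1, COL1A2 and COL3A1 were below 5. Of 14 epithelial markers 11 had values, KRT19, CLDN3 and CLDN7 having none, and 2 were higher and 2 lower under the KD label and 2 and 4 under the OE label. The epithelial sums were 7794, 7873 and 7774, then 8026, 8266 and 8371, then 7248, 7231 and 7287, mostly KRT18, a keratin, with EPCAM, ESRP1, GRHL2 and KRT5 below 5. All 6 endothelial markers had values, 2 higher and 2 lower under the KD label and 3 lower under the OE label, with sums of 1121, 1142 and 1131, then 1211, 1209 and 1182, then 836, 870 and 909, mostly PECAM1, and TEK was below 5. PECAM1, an adhesion molecule of endothelium and platelets, differed by 0.47 and -0.28, KDR, a VEGF receptor, by -1.32 and -0.84, and EGFL7, a secreted endothelial protein, by -0.94 and -0.20 (-0.61 and -0.11 with the regional median removed, the latter not called).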

How the data were processed

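RNA of 9 IMR-32 libraries was analysed, 3 per group. The deposited values are regularized log2 values that the authors made from read counts: trimming with cutadapt, mapping to GRCh38 with hisat2, counting with featureCounts, removal of genes with a total count under 10, and rlog from DESeq2. Versions and annotation were not stated, and library depth is unknown from rlog values. Symbols, positions and exons came from GENCODE release 44. Differences (KD minus PAR, OE minus PAR, OE minus KD) were tested, two-sided, with limma 3.58.1 in R 4.3.3, with a variance trend, all 9 libraries and Benjamini-Hochberg adjustment over 22290 genes. Python 3.11.15, pandas 2.3.3, numpy 2.4.6 and matplotlib 3.10.9 made the summaries and plots.

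Genes named were CDH10, CDH1, CDH2 and the type I cadherins, the 10 largest called increases and decreases of members in each comparison, all clustered members with values, the most abundant member of other role groups, up to 3 per direction in each partner list, and markers that were most abundant or low; other members were added to account for all 40. Alternatives were no variance trend, a mean value of at least 5, quantile normalisation, the replicate number as a block, only the 2 groups compared, removal of the median difference of each 20-Mb block, unadjusted p, and each library left out. Members and lists were chosen with earlier results of these data known. One gene of the adrenergic marker list chosen at the start is not reported here. Isoform shares were left out because 3 of 53 clustered genes had values. Promoter sequences are from RefSeq (GRCh38.p14).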

Additional observations from a re-analysis of the deposited data

Results flagged for a closer look

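A non-coding transcript inside the protocadherin clusters, which the comparisons of protein-coding members did not use, differed from the parental libraries. PCDHB1-AS1, annotated antisense to the beta isoform PCDHB1, had rlog values of 6.41, 6.36 and 6.31 in the parental libraries, 6.89, 6.84 and 6.87 in the libraries labelled KD, and 6.49, 6.51 and 6.63 in those labelled OE. All libraries of both labels were above all parental libraries. The difference was 0.50 for the KD label (adjusted p = 5.1e-11) and 0.18 for the OE label (adjusted p = 0.00231, both from limma). The library kit did not record strand, so its reads cannot be told apart from sense transcripts of the same bases, and PCDHB1 itself had no value. Its annotated span also runs into PCDHB2, a beta isoform on the opposite strand that was itself called higher under the KD label.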

How the results depend on the processing

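Across 16 alternatives, 4527 values of 285 called results were recomputed, and results that were not called are outside this tally. With unadjusted p no call could end. Leaving out a library outside the 2 groups compared could not change the difference itself. Of the 4527 values, 4339 kept their direction and stayed called, 185 kept their direction but were no longer called, and 3 changed sign. CTNNA1 for KD minus PAR was -0.039 after quantile normalisation (0.036 as reported). With the regional median removed, CDH13 for KD minus PAR was 0.0050 (-0.051 as reported) and STK4 was -0.0077 (0.046 otherwise). Leaving out each library gave 0 to 1 members called with a difference over 0.5 for OE minus PAR, and 5 to 7 for OE minus KD. The cause was not tested.

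With the replicate number as a block, 12015 genes were called for KD minus PAR, 7854 for OE minus PAR and 10623 for OE minus KD, against 11980, 7764 and 10552 without it, and the members called higher and lower were 21 and 11, 10 and 9, and 10 and 19. Under the OE label CDH24 was then not called and PCDH15 was, and from the KD to the OE label CDH26 was. Residuals of libraries with the same number had a Pearson r of -0.071 to 0.14 across 14000 genes, which are not independent replicates. It was over 0.1 in 2 of 9 pairs. Libraries with different numbers had -0.14 to 0.075 in 18 pairs. Both values over 0.1 joined the KD and OE labels, 0.116 for replicate 1 and 0.14 for replicate 3, while replicate 2 had 0.023. The lowest value, -0.139, also joined these labels (KD replicate 1 and OE replicate 3). The numbers were not treated as pairs in the main comparisons. Shares of isoforms and their alternatives were not run, since 3 of 53 clustered genes had values. The depth of each library is unknown, and shrinkage limits differences at low levels.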

Other observations

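Some relatives of the members outside the symbol rule differed, and they are named here after their values were seen. PCDH11X, a delta-1 protocadherin of the X chromosome whose symbol ends in a letter, had rlog values of 4.67, 4.67 and 4.61 in the parental libraries, 5.23, 5.25 and 5.24 in the libraries labelled KD, and 4.69, 4.66 and 4.69 in those labelled OE. The libraries labelled KD were above the other 6, with a difference from parental of 0.59 (adjusted p = 2.2e-13), and the OE label gave 0.030 (adjusted p = 0.651). The pseudogene CDHR17P had values of 5.80, 5.76 and 5.76, then 6.44, 6.42 and 6.42, then 5.45, 5.59 and 5.38 in the same order of groups, with differences of 0.65 (adjusted p = 4.9e-13) and -0.30 (adjusted p = 1.0e-05).

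The CELSR cadherins, which carry the core planar polarity signal between cells, were all called under both labels. Of all genes with a mean of at least 5, 71.7% were called under the KD label and 50.3% under the OE label. CELSR2 had differences of -0.25 (adjusted p = 5.2e-10) and 0.18 (adjusted p = 9.1e-07), CELSR3 of -0.18 and 0.082, and CELSR1 of 0.10 and -0.079, so that each had opposite signs under the KD and OE labels, which share the parental libraries. Calls lower under the KD label and higher under the OE label were held by 2.07% of all genes, and the reverse by 2.17%. Of the calsyntenins, cadherin-like proteins of synapses and vesicles, CLSTN3 was higher by 0.12 under the KD label (adjusted p = 0.00616), and CLSTN1 (-0.022 and -0.023) and CLSTN2 (0.051 and -0.051) were called under neither label. The pseudogene CDH12P3 and the antisense transcript CDH13-AS2 were also called under neither, and the pseudogene CDHR18P was lower under the KD label (-0.11, adjusted p = 0.0432). PCDH10-DT, the transcript divergent to PCDH10, was higher by 0.21 (adjusted p = 4.1e-04) and 0.30 (adjusted p = 7.2e-06).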
